A study of Macaca mulatta with 8 samples.

Results

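The MAP kinase genes of the rhesus macaque oocyte were followed here through the members of the cascade and the proteins that restrain it. They were taken as the array probe sets (groups of short probes for a single transcript) that carry exactly 1 gene symbol and whose symbol begins with DUSP, MAPK, MAP2K, MAP3K, MAP4K, RPS6KA, SPRY or SPRED. The rule found 67 genes of 14132 with a symbol, at 114 probe sets out of 52766 that are not controls, of which 24956 carry 1 symbol. It uses names only and no measured value. By their letters it also takes in SPRYD3, SPRYD4 and SPRYD7, which are named for a SPRY domain and are not Sprouty genes. DUSP6, RPS6KA3 and SPRED1 were not analysed here.

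In this pathway a kinase of the MAP3K tier phosphorylates a MAP2K, which phosphorylates a MAP kinase on a threonine and a tyrosine of its activation loop. The ERK branch is the one best known in eggs, where it helps to hold them at metaphase II. MOS acts as its MAP3K, MAP2K1 and MAP2K2 pass the signal to ERK, and kinases of the RPS6KA family act downstream. Dual-specificity phosphatases (DUSP) of the MAP kinase phosphatase class remove both phosphates, and Sprouty and Spred proteins dampen the signal upstream of ERK. The array measures transcripts, not phosphorylation.

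The 2 groups were metaphase II oocytes of Macaca mulatta, 4 arrays of oocytes matured in the animal (in vivo) and 4 arrays of oocytes matured in culture (in vitro). RNA of 4 pooled oocytes was amplified for each array. The series text calls the arrays of a group biological replicates. The labels used here give no strain, age, hormone treatment, culture medium or time, and do not say which animals the pooled oocytes came from, so it is unknown whether pools share an animal, and the p-values cover pool-to-pool spread only. In pooled material, fewer cells that carry a transcript and less of it per cell cannot be told apart. The values are MAS5 signals, a linear intensity per probe set, and having 4 arrays per group limits how precisely a difference is known.

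Across the series, 38 of 26383 tested probe sets passed an adjusted p of 0.05 in limma (0.144%), 27 higher and 11 lower in vitro. When each array was centred on its median, the split was 28 higher and 19 lower. Of 12 oocyte markers named on the array, 11 were above background on all 8 arrays and none passed the test. Of 17 granulosa and cumulus markers, which mark the somatic cells around the egg, 2 passed, INHBA and STAR, both higher in vitro. An array's background was set by control probe sets that no RNA was added for, and lay between 15.7 and 27.0.

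A probe set was tested where its mean of log2(signal + 8.2) over the 8 arrays was above the median of all probe sets. This held for 76 of the 114 members (56 of the 67 genes). The edge of this filter lay between an SPRED2 probe set just outside it, at 25.5 ± 22.8 in vivo against 34.1 ± 30.2 in vitro (mean and SD, n = 4 each), and a MAPK8IP3 probe set just inside it, at 25.2 ± 14.5 and 27.2 ± 14.7. Of all members, 56 probe sets were above background on all 8 arrays and 9 were above it on none. Fold changes below are differences of log2(signal + 8.2), in vitro minus in vivo, with the standard error (SE) of the limma fit.

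Of the 76 tested members, 1 passed the adjusted threshold and it rose: DUSP1. No member fell, against 0.102% of all tested probe sets called higher and 0.0417% called lower. At an unadjusted limma p under 0.05 there were 3 members higher (3.95%) and 6 lower (7.89%), beside 4.7% and 5.53% of all tested probe sets, and 11.8% of the members beside 10.2% in either direction. The arrays of the groups did not overlap at 3 members that were higher in vitro and 4 that were higher in vivo, 3.95% and 5.26%, beside 3.17% and 3.11% of all tested probe sets. In either direction this was 9.21% of the members beside 6.28%. The members' median log2 fold change was -0.05, while the median over all tested probe sets was 0.01. It was negative for 43 of the 76 members (56.6%) and for 49.3% of all tested probe sets. Apart from DUSP1, which had 1.82, no tested member differed by more than 1 on the log2 scale, and 61 of the 76 differed by less than 0.5.

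**Figure D1:**
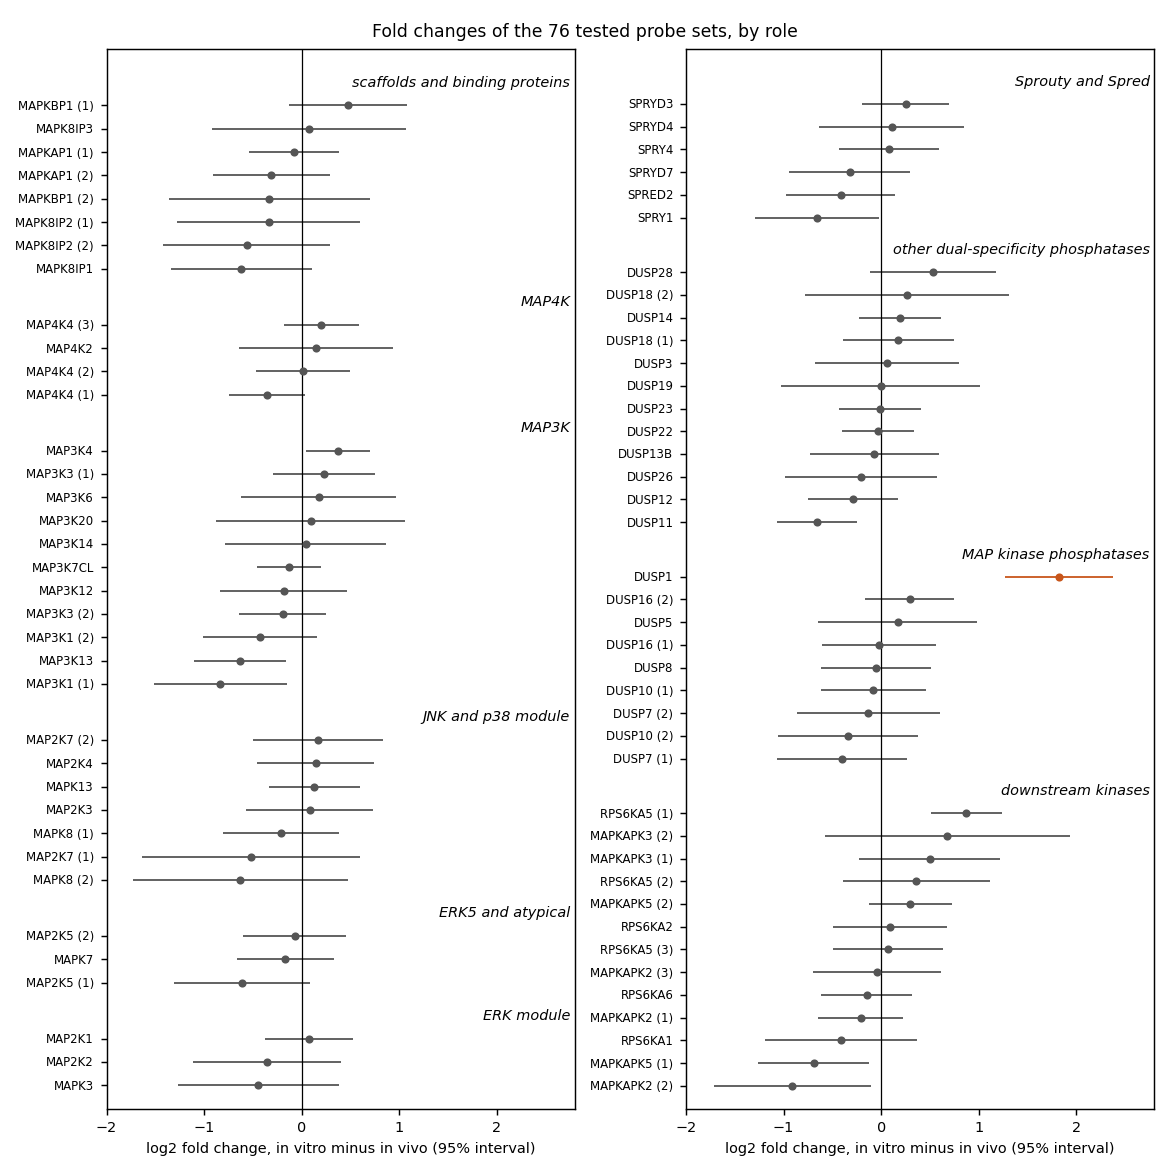
Points give the log2 fold change of a tested member probe set (in vitro minus in vivo, 4 arrays each) with its 95% interval from limma, grouped by role. Numbers in brackets tell apart the probe sets of a gene. DUSP1, in orange, lies at 1.82 and is the sole point past the adjusted threshold, while the remaining 75 lie between -0.91 and 0.87.

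The 95% interval of the fold change lay wholly inside a 2-fold difference in either direction for 46 of the 76 members, and reached beyond it for 30. Its median width was 0.60 on the log2 scale to each side of the estimate. Among 17 genes with at least 2 tested probe sets, the fold changes had the same sign for 11 genes and opposite signs for 6, which were DUSP16, MAP2K7, MAP3K3, MAP4K4, MAPKAPK5 and MAPKBP1.

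The phosphatases that act on MAP kinases come first, because they hold the single call. DUSP1, a nuclear phosphatase that acts on p38, JNK and ERK and is itself induced by stress and growth signals, had signals of 370.5, 561.9, 258.1 and 221.9 on in vivo replicates 1 to 4. On in vitro replicates 1 to 4 they were 1343.1, 1347.4, 1106.3 and 994.1. The groups did not overlap, since the lowest in vitro array was well above the highest in vivo array. The mean went from 353 ± 153 to 1198 ± 176 (SD, n = 4 each), a log2 fold change of 1.82 ± 0.26 (SE), with a 95% interval from 1.26 to 2.37 and a limma adjusted p of 0.00813. Among all 26383 tested probe sets, 17 had a p as small as this or smaller.

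The call for DUSP1 was lost without in vitro replicate 1, at a limma adjusted p of 0.0547, and without in vitro replicate 2, at 0.0521, where the log2 fold change was 1.76 in both. A fit without the intensity trend in the variance gave 0.127. Over the 17 alternatives the log2 fold change ran from 1.63 to 2.07, the adjusted p ran from 0.00283 to 0.127, and the call held under 14 of them.

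The second DUSP1 probe set was too dim for the test. Its signals were 20.3, 9.8, 15.9 and 2.4 in vivo, at or below background on all 4 arrays, and 52.5, 45.8, 11.5 and 4.4 in vitro. It was above background on in vitro replicates 1 and 2 alone. With no filter on low values its log2 fold change was 0.66 at a limma adjusted p of 0.836, so the rise of DUSP1 rests on 1 probe set.

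Values that could move with DUSP1 were set beside it. The summed signal of 17 granulosa and cumulus markers ran from 24243 to 28960 in vivo and from 24258 to 32484 in vitro, and the groups overlapped; 13 of the 17 were above background on all 8 arrays and all were above it on at least 1. SERPINE2 alone gave 10342 to 17018 of each sum. The arrays with the highest DUSP1 signal, in vitro replicates 1 and 2, also had the 2 highest sums, 31758 and 32484, while in vitro replicates 3 and 4 had 24963 and 24258. In vivo replicate 4 had the lowest DUSP1 signal of the 8 arrays, 221.9. Its sum of 28960 was the highest in vivo and was above those of in vitro replicates 3 and 4. SERPINE2 made up 17018 of it, against 12014.5 and 10342 on in vitro replicates 3 and 4, so this order rests on SERPINE2.

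Some somatic markers, like DUSP1, were higher on all 4 in vitro arrays than on any in vivo array. Of the 16 tested granulosa and cumulus markers, 9 had a positive log2 fold change and the others a negative one, with a median of 0.02. INHBA, STAR and EFEMP1 were listed with their rise in culture already known from earlier results of these data. EFEMP1 did not pass and its groups overlapped, at a log2 fold change of 1.96 ± 0.55 (SE, limma adjusted p = 0.249). INHBA, a subunit of activin and inhibin, was at 75.9 to 252.0 in vivo and at 743.9 to 2529.4 in vitro, a log2 fold change of 3.08 ± 0.36 (SE, limma adjusted p = 0.00226). STAR, which brings cholesterol into mitochondria for steroid synthesis, was at 90.6 to 322.4 in vivo and at 525.7 to 1622.6 in vitro, a log2 fold change of 2.60 ± 0.38 (limma adjusted p = 0.00861). HSD3B2, a steroid-making enzyme of the same list, was at 1.8 to 112.6 and 132.6 to 465.4, and its groups did not overlap (limma adjusted p = 0.214). Of 10 theca, stroma and endothelium markers none passed, and their sums overlapped, at 1053 to 1274 in vivo and 1046 to 1596 in vitro. Among them TAGLN, a smooth muscle protein, was higher on every in vitro array, at 26.1 to 58.7 against 77.7 to 616.5 (limma adjusted p = 0.244), and VWF of endothelium was lower on every in vitro array, at 174.9 to 251.5 against 131.5 to 170.6. The summed signal of 7 blood and immune markers did not overlap, at 211 to 279 in vivo and 88.9 to 186 in vitro, and none of these markers was above background on all 8 arrays. The ratio of 3' to 5' signal of the beta-actin control, a sign of how far amplification reached, ran from 51.2 to 150 in vivo and from 51.1 to 108 in vitro. The part of somatic or blood cells and of amplification in the DUSP1 result was not tested.

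**Figure D2:**
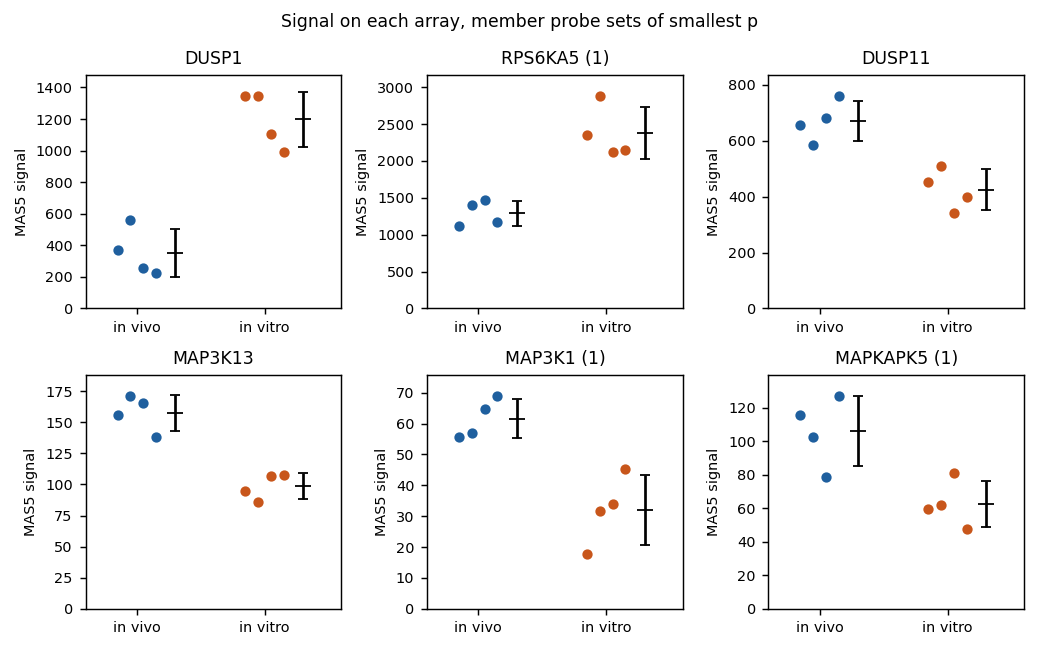
Points are the MAS5 signals of the 4 in vivo arrays (blue) and 4 in vitro arrays (orange) at the 6 member probe sets of smallest unadjusted p, with bars for the mean and SD of a group. The groups are apart at DUSP1, RPS6KA5, DUSP11, MAP3K13 and MAP3K1, and overlap at MAPKAPK5.

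The other MAP kinase phosphatases did not pass. DUSP10 and DUSP16, which prefer JNK and p38, gave log2 fold changes of -0.08 ± 0.25 and -0.34 ± 0.33 at the probe sets of DUSP10, and of -0.02 ± 0.27 and 0.29 ± 0.21 (SE) at the tested probe sets of DUSP16. Signals of DUSP10 were 277.7, 420.4, 480.7 and 442.0 in vivo and 331.2, 267.7, 394.8 and 560.7 in vitro at its first probe set, so the groups overlapped widely. DUSP8, also a JNK and p38 phosphatase, had means of 601 ± 243 (in vivo) and 541 ± 24.5 (in vitro). DUSP7, a cytoplasmic ERK phosphatase, had log2 fold changes of -0.40 ± 0.31 and -0.13 ± 0.34. DUSP5, an ERK phosphatase of the nucleus, was at 46.0 ± 30.7 and 46.5 ± 4.67, with 18.5, 37.1, 90.0 and 38.6 in vivo and 43.2 to 53.2 in vitro. DUSP4 was too dim for the test at both of its probe sets, where 1 of 8 arrays at most was above background. Of the 9 tested probe sets of this class, 1 passed, and the median log2 fold change was -0.05.

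**Figure D3:**
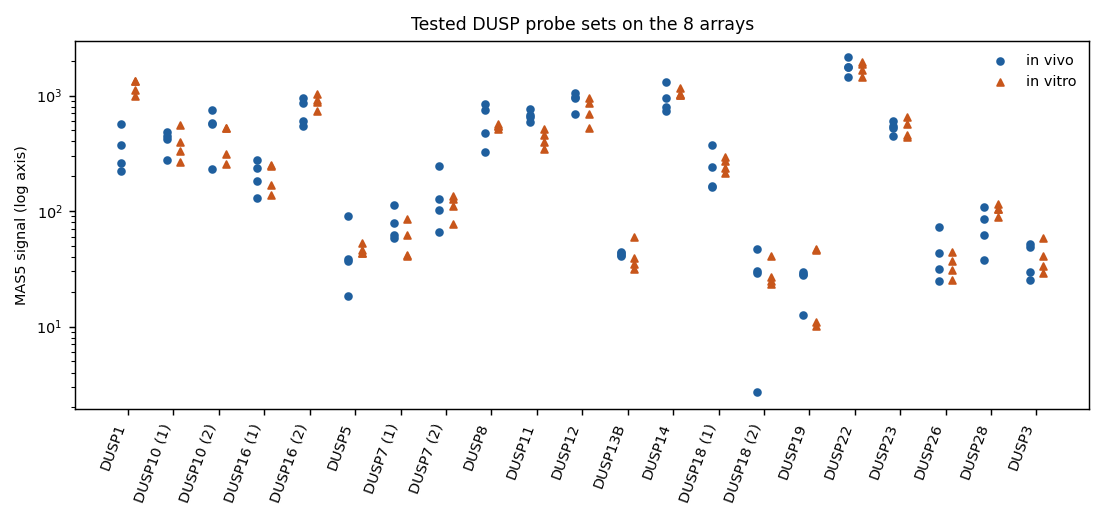
MAS5 signals (log axis) of the 21 tested DUSP probe sets on the 4 in vivo arrays (circles) and 4 in vitro arrays (triangles). The groups lie apart at DUSP1, where in vitro is higher, and at DUSP11, where in vivo is higher, and they overlap at the other 19. Levels of different probe sets are not comparable with each other.

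Atypical and other dual-specificity phosphatases, many of which act on substrates other than MAP kinases, were measured at 12 tested probe sets, and none passed. DUSP11, which acts on the 5' end of RNA, had 657.5, 585.9, 680.7 and 761.2 in vivo and 451.1, 510.8, 341.2 and 399.2 in vitro. All 4 in vitro arrays were below all 4 in vivo arrays. Its log2 fold change was -0.66 ± 0.19 (SE), with a 95% interval from -1.06 to -0.25 and a limma adjusted p of 0.259, which ran from 0.189 to 0.523 over the alternatives. DUSP28 had a log2 fold change of 0.53 ± 0.30, from 73.6 ± 30.8 to 104 ± 10.9 (SD, n = 4 each), and DUSP12 had -0.29 ± 0.22. DUSP22 (-0.03, from -0.40 to 0.34) and DUSP23 (-0.01, from -0.44 to 0.41) had fold changes near 0 with 95% intervals inside a 2-fold difference. DUSP14, which was at 950 ± 255 in vivo and 1059 ± 70.1 in vitro, had 0.19. DUSP3, DUSP13B, DUSP18, DUSP19 and DUSP26 had log2 fold changes between -0.21 and 0.27 at their tested probe sets. DUSP21 and DUSP29 had no tested probe set, and DUSP29 was above background on no array.

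The ERK module had no call. MAP2K1, the MAP2K that phosphorylates ERK, had 8553.0, 10991.3, 8666.1 and 17394.9 in vivo and 11999.0, 12690.2, 11890.9 and 9607.1 in vitro. The in vivo arrays spanned the whole in vitro range, with in vivo replicate 4 highest. The log2 fold change was 0.07 ± 0.21 (SE), with an interval from -0.37 to 0.52. MAP2K2, its close relative, had 388.9, 268.3, 324.0 and 121.0 in vivo and 311.7, 250.5, 145.1 and 130.5 in vitro, at the probe set that was tested, a log2 fold change of -0.36 ± 0.35. MAPK3, which is ERK1, had 64.6, 43.3, 63.9 and 95.7 in vivo and 68.1, 75.2, 42.2 and 17.4 in vitro. In vitro replicate 4 was at or below background there, and the log2 fold change of -0.44 ± 0.39 had an interval from -1.27 to 0.38. MOS, the MAP3K of this branch in eggs, was listed among the other pathway genes and had a log2 fold change of 0.00 ± 0.15.

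In the branch of ERK5, a larger MAP kinase with its own MAP2K, MAPK7 (ERK5) was at 392 ± 108 in vivo and 337 ± 27.9 in vitro. MAP2K5, its activating kinase, had log2 fold changes of -0.61 ± 0.33 and -0.07 ± 0.25 at its probe sets. At the first of these the in vivo signals were 85.8, 75.9, 83.2 and 65.2, and the in vitro signals were 24.6, 78.9, 40.3 and 61.6. In vitro replicate 2 fell among the in vivo arrays there, and the limma adjusted p was 0.549.

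The JNK and p38 module, which responds to stress and cytokines, had 7 tested probe sets for 5 genes, none past the threshold. MAPK8, or JNK1, had log2 fold changes of -0.21 ± 0.28 and -0.63 ± 0.51 at its tested probe sets. MAPK13, or p38 delta, had a mean of 295 ± 70.1 in vivo and of 319 ± 40.6 in vitro. Of the activating kinases, MAP2K3 had 0.08 ± 0.30 and MAP2K4 had 0.14 ± 0.28. MAP2K7 had 0.17 ± 0.31 at the probe set that was above background on all 8 arrays, and -0.52 ± 0.52 at the other, which was above it on 3.

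MAPK14, or p38 alpha, and MAPK10, or JNK3, were too dim for the test. A MAPK14 probe set had 29.4, 19.6, 46.1 and 29.2 in vivo, above background on all 4 arrays, and 3.6, 16.2, 7.9 and 3.9 in vitro, at or below background on all 4. With each in vitro array set to its background, the signal was at least 1.27-fold higher in vivo, and with no filter its limma adjusted p was 0.463. The other MAPK14 probe set was above background on no array. Without the filter, 3 of the 38 untested member probe sets had an unadjusted p under 0.05, at MAPK14, MAP3K13 and MAP3K6, and 0 passed the adjusted threshold. Of all 52766 probe sets in that fit, 52 passed it.

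Among the MAP3K genes, the uppermost kinases of the cascade, 11 probe sets for 9 genes were tested and 15 were too dim. MAP3K4, which feeds the JNK and p38 branches, had 1892.9, 2002.3, 1614.1 and 2007.3 in vivo and 2524.2, 2305.1, 2296.9 and 2588.3 in vitro. All in vitro arrays were above all in vivo arrays, by a small step. The log2 fold change was 0.37 ± 0.15 (SE), at an unadjusted limma p of 0.0294 and an adjusted p of 0.423.

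MAP3K13 and MAP3K1 had negative fold changes at their tested probe sets, without passing. MAP3K13, a leucine zipper kinase of the JNK branch, had 156.0, 171.1, 165.6 and 137.8 in vivo and 94.4, 85.8, 107.0 and 107.6 in vitro. The groups were apart, with a log2 fold change of -0.63 ± 0.22 and a limma adjusted p of 0.348. A dim and untested MAP3K13 probe set had the opposite order, with 2.9, 18.1, 2.7 and 0.9 in vivo and 22.5, 33.7, 31.5 and 18.5 in vitro, where 1 in vivo array and 2 in vitro arrays were above background (limma adjusted p = 0.425 with no filter). MAP3K1, which drives JNK and ERK signalling, had 55.6, 57.1, 64.8 and 68.9 in vivo and 17.6, 31.8, 33.8 and 45.3 in vitro at 1 probe set, a log2 fold change of -0.83 ± 0.32 (limma adjusted p = 0.391). Its other tested probe set had -0.43 ± 0.27, and in vitro replicate 4 lay inside the in vivo range there.

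None of the other members of this tier passed. MAP3K3, an activator of the ERK5 branch, had 0.23 ± 0.24 and -0.19 ± 0.21 at its probe sets. MAP3K7CL, a short protein related to MAP3K7 that is not known as a kinase, was at 4940.7 ± 635 in vivo and 4498 ± 410 in vitro. MAP3K7 itself, the kinase TAK1 of the TGF-beta and cytokine pathways, was too dim at all 3 of its probe sets. MAP3K12, MAP3K14, MAP3K20 and MAP3K6 had log2 fold changes of -0.19, 0.04, 0.09 and 0.17. MAP3K9, MAP3K10, MAP3K15 and MAP3K19 had no tested probe set.

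The MAP4K genes lie above the MAP3K tier in stress signalling. MAP4K4 had 383.8, 351.0, 400.4 and 365.0 in vivo and 303.3, 272.1, 295.8 and 292.1 in vitro at 1 of its 3 probe sets. The groups were apart there, at a log2 fold change of -0.36 ± 0.18 and a limma adjusted p of 0.525. The other probe sets had 0.01 ± 0.22 and 0.20 ± 0.18, with overlapping groups. MAP4K2 had 0.15 ± 0.37.

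Scaffolds and binding proteins hold the kinases of a branch together or merely share the name. MAPK8IP1, a JNK scaffold, was at 50.6 ± 10.7 in vivo and 30.9 ± 12.2 in vitro, a log2 fold change of -0.62 ± 0.34. MAPK8IP2, of the same family, had -0.34 ± 0.44 and -0.56 ± 0.40. MAPKBP1 had 0.47 ± 0.28 at its brighter probe set, from 235 ± 70.8 to 333 ± 114, and -0.33 ± 0.48 at the dimmer one. MAPK8IP3, another JNK scaffold, had 0.07 ± 0.46. MAPKAP1, which encodes SIN1, a subunit of mTOR complex 2, had -0.08 ± 0.21 and -0.31 ± 0.28. None of the 8 tested probe sets of this class passed, and their median log2 fold change was -0.32.

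Of the kinases downstream of MAP kinases, RPS6KA5 came closest to the threshold. It encodes MSK1, a nuclear kinase activated by ERK and p38 that phosphorylates histone H3 and CREB. Its signals were 1118.0, 1398.9, 1473.6 and 1177.7 in vivo and 2356.2, 2882.6, 2118.5 and 2148.8 in vitro. Every in vitro array was above every in vivo array, with an in vivo mean of 1292 ± 171 and an in vitro mean of 2377 ± 354 (SD, n = 4 each). The log2 fold change was 0.87 ± 0.17 (SE), with an interval from 0.51 to 1.24, and the limma adjusted p was 0.0666.

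The adjusted p of RPS6KA5 was 0.0492 when the test was limited to signals past the 75th percentile and 0.0368 with array weights, so that it passed under these settings. Over all 17 alternatives it ran from 0.0368 to 0.316, while the log2 fold change ran from 0.78 to 0.94. The other RPS6KA5 probe sets had 0.36 ± 0.35 and 0.07 ± 0.26, at signals of 36.8 ± 13.1 and 93.2 ± 21.5 in vivo, and their groups overlapped.

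**Figure D4:**
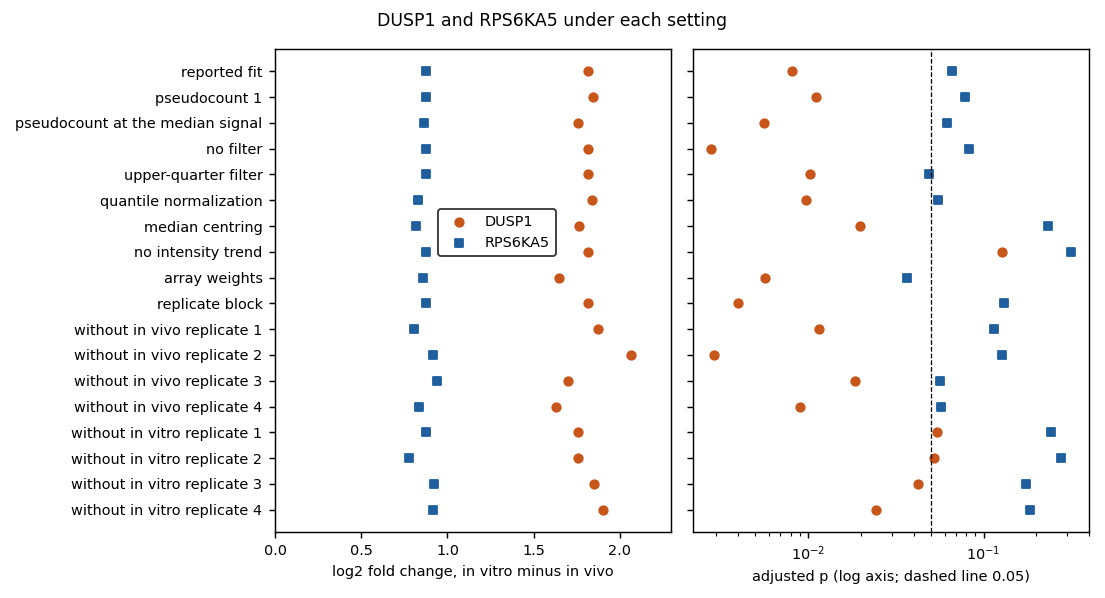
The log2 fold change (left) and limma adjusted p (right, log axis) of DUSP1 and of the brightest RPS6KA5 probe set in the reported fit and under each of 17 alternatives. The fold change of DUSP1 lies between 1.63 and 2.07 and that of RPS6KA5 between 0.78 and 0.94, while the adjusted p crosses 0.05 (dashed line) in 3 settings for DUSP1 and in 2 for RPS6KA5.

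The remaining RPS6KA genes encode ribosomal S6 kinases, which are targets of ERK. RPS6KA1 had 100.6, 40.7, 60.5 and 77.6 in vivo and 66.8, 79.3, 32.2 and 29.5 in vitro, with overlapping groups and a log2 fold change of -0.41 ± 0.36. RPS6KA2 had 504.7, 291.9, 485.9 and 211.1 in vivo and 318.5, 480.3, 333.4 and 389.4 in vitro. Its in vivo arrays enclosed the in vitro arrays, and its log2 fold change was 0.09 ± 0.27. RPS6KA6 had -0.15 ± 0.22.

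The MAPKAPK genes encode kinases activated by p38 and, for MAPKAPK5, by atypical MAP kinases. MAPKAPK5 had 115.9, 102.5, 78.5 and 127.0 in vivo and 59.7, 62.0, 81.0 and 47.7 in vitro at 1 probe set, where only in vivo replicate 3 and in vitro replicate 3 crossed. Its log2 fold change was -0.69 ± 0.27 (limma adjusted p = 0.396), while the other, brighter probe set had 0.30 ± 0.20. MAPKAPK2 had -0.91 ± 0.37 at 1 probe set (limma adjusted p = 0.421), and -0.21 ± 0.20 and -0.05 ± 0.31 at the others. At the first of these, in vitro replicate 3 was at 84.7, inside the in vivo range of 62.5 to 97.5, and the other in vitro arrays were at 31.5, 16.3 and 42.5. MAPKAPK3 had 0.50 ± 0.34 and 0.67 ± 0.59. In this class of 13 tested probe sets, 0 passed in limma, 1 was higher and 2 were lower at an unadjusted p under 0.05. Over all tested probe sets, 4.7% were higher and 5.53% lower at this limit.

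Sprouty and Spred proteins are feedback inhibitors of receptor signalling to ERK. SPRY1 had 133.7, 65.7, 131.6 and 120.0 in vivo and 65.2, 62.4, 96.3 and 47.3 in vitro. In vivo replicate 2 lay among the in vitro arrays, and the log2 fold change was -0.66 ± 0.30 (limma adjusted p = 0.467). SPRED2 had -0.41 ± 0.26 at its tested probe set, from 106 ± 20.5 to 77.5 ± 17.8. SPRY4 had 302.5, 541.1, 655.1 and 449.9 in vivo and 415.6, 478.3, 622.1 and 490.1 in vitro, with a log2 fold change of 0.08 ± 0.24. SPRY2 was too dim at both probe sets. The SPRYD genes had 0.25 for SPRYD3, 0.11 for SPRYD4 and -0.32 for SPRYD7.

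The other genes of the pathway were read from a list of 77 adaptors, RAS and RAF proteins, upstream kinases, transcription factors and phosphatases. Of these, 59 were named on the array and 55 were tested, each at its brightest probe set. None passed the adjusted threshold in limma or under any of the 17 alternatives. At an unadjusted limma p under 0.05, 5 of the 55 were higher and 3 lower, beside 4.7% and 5.53% of all tested probe sets. The median log2 fold change of the 55 was 0.04. The smallest p-values were those of FOSL2, TAOK3, KSR1 and TNIK. FOSL2, a partner of JUN in the AP-1 factor, had -0.80 ± 0.19, with 554.4, 485.7, 570.8 and 446.2 in vivo and 272.4, 293.4, 352.5 and 253.3 in vitro (limma adjusted p = 0.171). TAOK3, a kinase above the p38 and JNK branches, had 0.56 ± 0.17, KSR1, a scaffold of RAF and MAP2K, had 0.54 ± 0.18, and TNIK, a kinase of the MAP4K4 family, had 0.49 ± 0.18. At their other tested probe sets, TAOK3 had 0.16, KSR1 had 0.51 and -0.43, and TNIK had 0.52, 0.26, -0.13 and -0.24. MOS was at 4799.3, 5272.6, 4305.3 and 5330.3 in vivo and 4796.4, 5835.2, 4727.6 and 4417.8 in vitro. ZAK on this list is an older name of MAP3K20, described above.

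The pattern of DUSP1 over the 8 arrays was compared with that of every other tested probe set with a gene name. The 5 most alike by Pearson correlation of log2 values were probe sets of SLC1A5 (r = 0.99), MCCC1 (0.98), CCDC66 (0.98), MEST (0.98) and POLA1 (0.97). All 5 were higher on every in vitro array than on every in vivo array, as DUSP1 was, and none of the 5 passed the adjusted threshold. These correlations describe 8 arrays in 2 groups, which share the step between the groups, and carry no p.

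Among the 76 tested members, in vivo replicates 1 to 4 were the highest of their group at 22, 18, 14 and 22 probe sets and the lowest at 23, 12, 20 and 21. In vitro replicates 1 to 4 were the highest at 17, 17, 19 and 23 and the lowest at 22, 18, 17 and 19. No array was the highest or the lowest of its group at more than 23 of the 76.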

How the data were processed

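RNA of 4 oocytes per pool was amplified in 2 rounds and labelled with biotin, per the labels' protocols, and each pool was hybridised to 1 array. The values the authors deposited are MAS5 intensity signals, linear in scale, per the submitters' processing notes; the program's version is not given in the sources used here. Trimmed of 2% at either end, each array averaged about 150.0, the mark of a global scaling. Amplification from the 3' end favours transcript ends, and dim MAS5 signals vary strongly.

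Symbols came from the platform annotation, and for all 114 members the Entrez identifier led to the same symbol in RefSeq's macaque gene table. The analysis used log2(signal + 8.2). The pseudocount of 8.2, the 25th percentile of non-control signals, shrinks the changes of dim transcripts. Testing was limited to probe sets whose mean of this log2 value over the 8 arrays lay above the 50th percentile. These were fitted with limma 3.58.1 in R 4.3.3 (lmFit, eBayes with intensity trend), without covariates, in vitro minus in vivo, with Benjamini-Hochberg adjustment over all 26383 at 0.05. Background was set per array at the 95th percentile over 59 controls for which no RNA was added. The fit was also run on simulated data, in which every probe set and array was drawn independently. Effects shared by the probe sets of a pool were therefore not covered. Scan dates were not used here, so no batch was examined.

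Alternatives were pseudocounts of 1 and 27.7, no filter, a filter at the 75th percentile, median centring, quantile normalization, no trend, array weights, a replicate block, and each array left out in turn. Named genes were those past the threshold, up to 4 genes of smallest p in each role group, and central genes of each branch whatever their values. For other pathway genes they were MOS and the 4 of smallest p. Other members are named to account for the whole set, and DUSP22 and DUSP23 were singled out after their values were seen. The members and lists were chosen with earlier results of these data known.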

Additional observations from a re-analysis of the deposited data

Results flagged for a closer look

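At 2 of 116 groups of 4 arrays (58 tested probe sets of named genes, both groups), 1 array stood apart from the other 3 by Dixon's test at the 95% level, where chance flags about 1 in 20 groups. At a MAP2K5 probe set, in vivo replicate 3 had a signal of 111.9, while the other in vivo arrays were between 79.0 and 83.8. At a MAP3K1 probe set, in vitro replicate 4 had a signal of 141.7, while the other in vitro arrays were between 76.8 and 84.3.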

How the results depend on the processing

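DUSP1 kept its direction under all 17 alternatives, with a log2 fold change of 1.63 to 2.07 when 1 array was left out and of 1.82 without the intensity trend, where its limma adjusted p was 0.127. The count of members past the threshold was 2 with the filter at the 75th percentile and with array weights (DUSP1 and RPS6KA5), 0 without the trend, and 0 to 1 when 1 array was left out, 0 being without in vitro replicate 1 or 2. The count over all tested probe sets was 38 in the reported fit, 10 without the trend and 88 with array weights. It ran from 18 to 97 when 1 array was left out, and leaving out in vivo replicate 1 gave 71. The highest count, with 45.4% of calls higher in vitro, came from leaving out in vivo replicate 4. The lowest came from leaving out in vitro replicate 1, and the same for replicate 2 or 3 of that group gave 21. With 1 array left out, the members' median log2 fold change of -0.05 ran from -0.12, without in vivo replicate 1, to -0.022, without in vitro replicate 2. Under the other settings it ran from -0.10 with median centring to -0.0047 with quantile normalization. The cause of these shifts was not tested. No gene of the other pathway list passed under any alternative.

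A block for the replicate number left DUSP1 past the threshold at a limma adjusted p of 0.00400 and gave 43 calls over all tested probe sets, with 1 member among them. Arrays of the same number did not deviate together (correlations of -0.05 to 0.02), so the numbers were not taken as pairs.

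The sign of the fold change turned at 16 named probe sets, none of them past the threshold. With quantile normalization DUSP16 had 0.084 and MAPKAP1 had 0.0025. Median centring gave -0.039 for MAP4K4, and array weights gave -0.046 for MAP4K4, 0.086 for MAPKAPK2 and -0.033 for RPS6KA5 at a dimmer probe set. With 1 array left out, MAP2K1 ran from -0.043 to 0.30, MAP2K5 from -0.12 to 0.031, MAP2K4 from -0.012 to 0.31 and MAP2K7 from -0.047 to 0.41. DUSP10 ran from -0.27 to 0.075, DUSP16 from -0.21 to 0.14, DUSP5 from -0.12 to 0.51 and DUSP7 from -0.40 to 0.19. MAP4K2 ran from -0.19 to 0.33, MAP4K4 from -0.11 to 0.16, SPRY4 from -0.13 to 0.24 and MAPKAPK2 from -0.24 to 0.13. RPS6KA2 ran from -0.14 to 0.27, the dimmer RPS6KA5 probe set from -0.047 to 0.18, MAPKAP1 from -0.16 to 0.025, and MAPKBP1 from -0.45 to 0.074. Where several probe sets measure a gene, these values are of 1 of them. Signals near background limit the dim members, 38 of which were not tested.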

Other observations

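FOS and MYC varied widely between pools of both groups. FOS, a classic immediate-early gene, had signals of 209.2, 4007.4, 11453.5 and 94.0 in vivo and 253.2, 547.7, 1343.3 and 13236.1 in vitro. Both groups held arrays near the bottom and near the top of this range, and the log2 fold change of 0.34 had a standard error of 1.33. MYC, a growth-induced transcription factor, had 143.1, 827.8, 347.8 and 86.7 in vivo and 127.4, 63.7, 2290.1 and 189.4 in vitro. DUSP1 was between 221.9 and 561.9 on the in vivo arrays while FOS ran from 94.0 to 11453.5 on them. On the in vitro arrays DUSP1 was between 994.1 and 1347.4, and FOS between 253.2 and 13236.1. A link between DUSP1 and FOS was not tested. IER2, another immediate-early gene, was at 2970.7 to 4037.1 in vivo and 3768.8 to 5683.1 in vitro, with a log2 fold change of 0.33 ± 0.17 (SE, n = 4 each). JUNB had 0.37 ± 0.30 and ATF3 had 0.53 ± 0.54. These genes belong to the list of other pathway genes and were singled out after their values were seen.

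PTPN7, a tyrosine phosphatase of ERK and p38, was too dim for the test. Its signals were 9.5, 17.8, 22 and 3.6 in vivo and 39.3, 45.9, 49.9 and 25.1 in vitro. In vivo it was above background on replicate 2 only, and in vitro on each of the 4 arrays. With no filter PTPN7 did not pass the adjusted threshold in limma. It belongs to the list of other pathway genes and was singled out after its values were seen.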
